A study of Homo sapiens with 6 samples.

Results

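The interferon-stimulated effector genes examined here were 50 genes whose products carry out the antiviral work of an interferon response, among them the IFIT, OAS, IFITM, Mx and guanylate-binding families, ISG15 and its conjugation enzymes, and the IFI6, IFI27 and IFI44 genes. They were selected by symbol, for what their products are known to do, but with earlier results of these data known. All 50 had an entry among the 36517 genes of the count table. The mRNA sequenced came from MDA-MB-453, an established human breast cancer cell line, at day 3. In 3 libraries the cells carried a lentiviral negative-control hairpin (control), and in the other 3 they carried a lentiviral hairpin against tRF-1-Ser (shtRF), a fragment of the 3′ trailer of a precursor of serine transfer RNA. Both groups had thus been transduced with a lentivirus, and the labels name no interferon treatment. Untransduced cells were not analysed here, and all 6 libraries came from 1 cell line. The study's methods speak of biological replicates without giving their origin, so the p-values measure the spread between these libraries.

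In an interferon response, interferons bind receptors on the cell surface, and the JAK kinases attached to those receptors phosphorylate STAT proteins. STAT2 and IRF9 take part in the factor ISGF3, which binds the interferon-stimulated response element in promoters, whereas STAT dimers bind the gamma-activated site. Many of the target genes are also transcribed at a low level in resting cells, and breast cancer cells can hold such a basal programme without added interferon.

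Of the 50 genes, 46 had enough counts to be tested, and 31 of them were lower and 4 higher in shtRF than in control at an edgeR adjusted p under 0.05, the threshold used throughout. Of the 31, IFITM1 passed the filter on low counts only through control libraries. SAMD9L, also among the 31, passed it in 3 control libraries and 1 shtRF library, so it too was tested because of its level in control. Among all 19628 genes tested, 18.9% were called lower and 20.6% higher. Counts given below for single families cover few genes and are descriptions, to be read beside these shares. A fall of more than 2-fold was called for 16 of the 46, against 3.11% of all genes, and a rise of more than 2-fold for 2, against 2.66%. Those were APOL1 and ISG20, and without control replicate 2 or shtRF replicate 3 only APOL1 was left, ISG20 then having log2 fold changes of 0.95 and 0.97. The median log2 fold change, shtRF minus control, was -0.62 over the 46 genes and -0.0025 over all tested genes. All 3 shtRF libraries lay below all 3 control libraries for 32 of the 46, which was so for 23.8% of all genes, and above them for 4, against 24.9% of all genes. IFI44L, IFI27, IFI44, MX1 and OAS2 fell most among genes with more than 1 RPKM in control. IFIT2, IFIT3, OASL, CMTR1 and SP100 stayed within the spread of the libraries, and ISG20, APOL1, GBP2 and GBP3 rose. In bulk RNA, fewer cells that express a gene and less RNA per cell cannot be told apart.

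**Figure D1:**
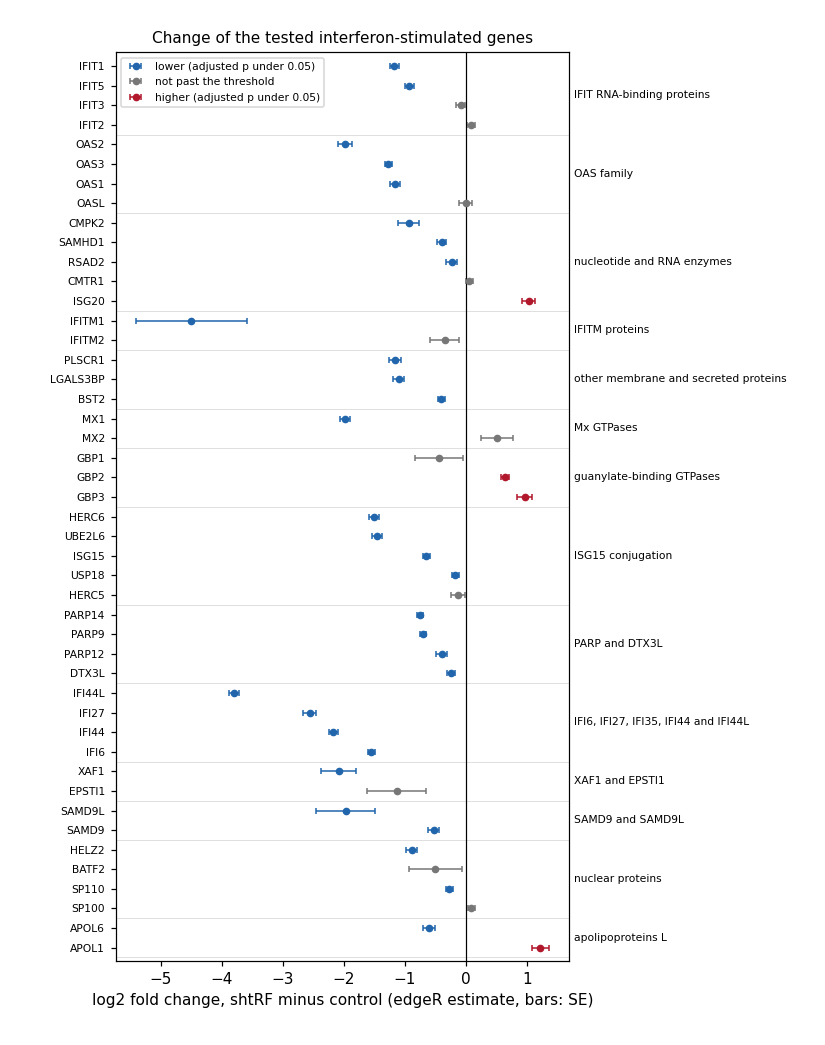
Log2 fold change (shtRF minus control, horizontal axis) of the 46 tested interferon-stimulated genes grouped by family, as points with bars of 1 SE from edgeR over 3 control and 3 shtRF libraries. Most points lie left of 0, IFITM1 and IFI44L farthest, and 4 genes called higher lie right of it.

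Promoter sequences from RefSeq (GRCh38.p14), covering 250 bases before and 50 after each start site, matched 40 of the 50 genes by symbol. The core of the interferon-stimulated response element was searched as GAAA, any 2 bases and GAAA, and the gamma-activated site as TTC, any 3 bases and GAA, on both strands. The first was present in 27 of the 40 genes, or 67.5%, against 4.38% of the 27305 genes with such a window. The second was present in 11 of the 40, against 9.38% of all genes. By response, the first motif was found in 19 of 28 matched genes called lower, in 2 of 2 called higher, in 4 of 7 not called and in 2 of 3 not tested. The motif was thus found in genes that fell and in genes that were not called, such as IFIT3. The stretches below stand upstream of the start site and outside the exons annotated for the gene in the count table. They come from genes called lower, from IFI44L to ISG15 in size of fall, and from IFIT3, which was not called. No gene that rose is shown, although ISG20 and GBP3, both called higher, also had the first motif. Capitals mark matches, TTTC, 2 bases and TTTC being the same motif on the other strand. Further matches in IFI44L, OAS3 and IFIT3 lie outside the printed stretches. A further match in IFIT5 runs across the start site and is not marked.
IFI44L (chr1:78620264-78620303, plus strand): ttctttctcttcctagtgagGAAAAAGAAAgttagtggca
IFI44 (chr1:78649751-78649788, plus strand): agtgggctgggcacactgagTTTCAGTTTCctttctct
IFI6 (chr1:27672266-27672368, minus strand): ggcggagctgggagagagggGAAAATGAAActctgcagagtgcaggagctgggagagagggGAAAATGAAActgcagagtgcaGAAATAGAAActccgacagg
IFI27 (chr14:94110608-94110660, plus strand): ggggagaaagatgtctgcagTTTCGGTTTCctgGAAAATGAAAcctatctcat
IFIT1 (chr10:89392487-89392539, plus strand): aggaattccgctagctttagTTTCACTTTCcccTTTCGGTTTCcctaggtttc
IFIT3 (chr10:89327821-89327893, plus strand): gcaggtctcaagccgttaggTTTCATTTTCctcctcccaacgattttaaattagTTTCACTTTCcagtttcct
IFIT5 (chr10:89414503-89414567, plus strand): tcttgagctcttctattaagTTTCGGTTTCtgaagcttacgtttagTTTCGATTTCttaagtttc
OAS3 (chr12:112938311-112938350, plus strand): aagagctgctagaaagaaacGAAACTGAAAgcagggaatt
ISG15 (chr1:1013364-1013409, plus strand): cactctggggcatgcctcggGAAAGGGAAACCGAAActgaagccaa

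In IFI6 a run of 29 bases that included a match occurred a second time in the printed stretch. In ISG15 both matches overlapped and appear as 1 run of capitals. The 10 genes whose symbols had no promoter sequence, and which were therefore not searched for either motif, were OAS2, OASL, IFIT2, IFITM2, MX2, GBP2, USP18, APOL1, APOL6 and LAMP3.

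The libraries held 63541413 to 78917459 counts. Pearson correlations of log2 CPM over the tested genes were 0.990 to 0.991 within groups and 0.977 to 0.980 between them. All 8 luminal markers examined (KRT8, KRT18, KRT19, EPCAM, GATA3, FOXA1, XBP1 and ERBB2) were tested, with summed levels of 10390 to 11220 CPM in control and 13020 to 14380 CPM in shtRF. Most of this sum was XBP1, with means of 6588 CPM in control and 8160 CPM in shtRF, and KRT8, with 1557 and 2691 CPM, and of the 8 markers 3 were called higher, 2 lower (GATA3 and ERBB2) and 3 not called. Of 6 leukocyte markers only CD68 was tested, with 85.8% of its exonic bases in another gene, and PTPRC and CD3E reached at most 0.0662 CPM in a library. The summed leukocyte markers reached 4.42 to 5.40 CPM in control and 5.78 to 8.17 CPM in shtRF, nearly all of it CD68. Of 5 measured fibroblast markers COL1A1 made up nearly all of 29.75 to 35.65 CPM in control and 20.6 to 21.4 CPM in shtRF, with COL3A1 and DCN at no more than 0.0645 CPM, and 5 endothelial markers together reached at most 0.437 CPM. Whether these differences had a part in the results was not tested. The small RNA that the hairpin targets is not measured by mRNA libraries, so here the group names rest on the labels. The paper reports a qPCR check of the knockdown in its cell lines, without saying whether it used the RNA of these libraries.

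Among the 46 tested genes, levels in control, set against gene length as RPKM (counts per kilobase of exon per 1000000 counts of the library), spanned from BST2 at 790.4 ± 35.4 RPKM (SD, n = 3) to MX2 at 0.0626 ± 0.0128 RPKM (SD, n = 3), within whose SD EPSTI1 also lay, at 0.0639 ± 0.00753 RPKM (SD, n = 3). After BST2, the antiviral tether at the cell surface, came IFI6 at 89.5 ± 7.64, ISG15 at 54.8 ± 4.38, IFI44 at 41.4 ± 2.87 and USP18 at 32.4 ± 1.70 RPKM (SD, n = 3), each step larger than the SDs of its neighbours. Below these, PARP14 at 20.8 ± 0.65 and PARP9 at 19.6 ± 0.916 RPKM differed by less than their summed SDs (n = 3), as did IFIT1 at 17.4 ± 1.48, OAS3 at 17.2 ± 0.788 and IFIT3 at 15.9 ± 1.57 RPKM. The median of the 46 tested genes was 4.36 RPKM, against 2.39 RPKM over all tested genes. Of 12 genes at 10 RPKM or more, 10 fell and none of the 12 rose, where 27.9% of all tested genes at that level were called lower and 31.9% higher. Of 23 genes between 1 and 10 RPKM, 17 fell and 2 rose, against 20.6% lower and 22.1% higher of all tested genes. Of 11 below 1 RPKM, 4 fell and 2 rose, against 10.8% lower and 11.5% higher. Across the 46 genes the level in control and the log2 fold change had a Pearson correlation of 0.003 (log10 RPKM) and a Spearman correlation of -0.118, given as a description over genes that share 6 libraries.

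**Figure D2:**
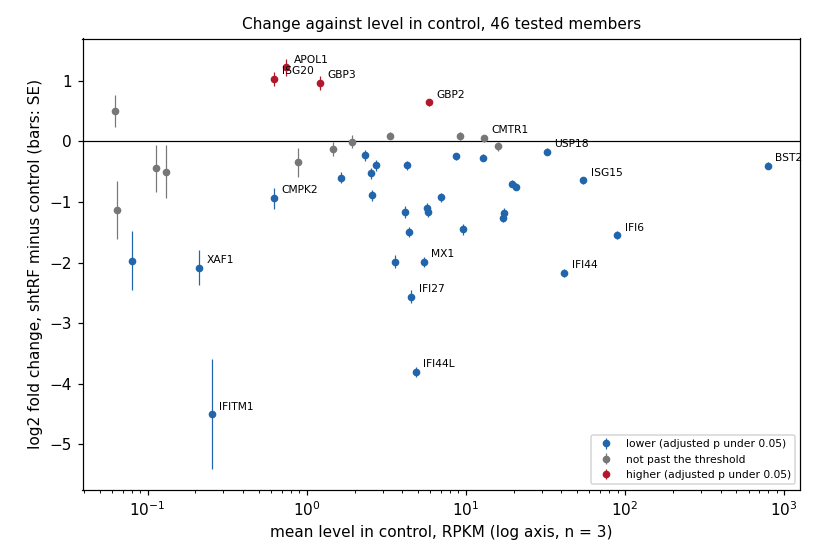
Log2 fold change (shtRF minus control, vertical axis, bars of 1 SE) against the mean level in the 3 control libraries (RPKM, log axis) for the 46 tested interferon-stimulated genes, coloured by the edgeR call. Genes called lower occur from below 0.1 RPKM up to BST2 at 790.4 RPKM, and the 4 genes called higher lie at or below 5.89 RPKM.

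The IFI genes are a group named for its induction and not for a shared activity. Of its 5 members 4 were tested and all 4 fell more than 2-fold. IFI44L, a relative of IFI44 of poorly known function (chr1:78619922-78646145, plus strand), was at 47.2, 50.2 and 48.9 CPM in the control libraries and 3.64, 3.18 and 3.66 CPM in the shtRF libraries, CPM being counts per 1000000 counts of a library after TMM scaling. The 3 libraries of each group lay close together and far from the other group, leaving 7.16% of the control level (log2 fold change -3.80, SE 0.08, edgeR adjusted p = 4.35e-19). Its neighbour IFI44 (chr1:78649796-78664078, plus strand) was at 76.6, 87.0 and 85.3 CPM in the control libraries and 20.1, 18.7 and 16.4 CPM in the shtRF libraries. It too was separated by group, at 22.2% of control (log2 fold change -2.17, SE 0.07, edgeR adjusted p = 1.26e-15). IFI27, a small hydrophobic protein of mitochondria (chr14:94104836-94116698, plus strand), was at 17.2, 19.98 and 18.6 CPM in the control libraries and 2.79, 3.36 and 3.29 CPM in the shtRF libraries. Every shtRF library was far below the lowest control library (log2 fold change -2.56, SE 0.10, edgeR adjusted p = 1.53e-14). Its relatives outside the set, IFI27L1 and IFI27L2, had log2 fold changes of -0.16 (edgeR adjusted p = 0.411) and 0.03 (edgeR adjusted p = 0.898). IFI6, which protects membranes used in viral replication and limits cell death (chr1:27666061-27672218, minus strand), was at 73.4, 82.8 and 71.7 CPM in the control libraries and 25.7, 26.2 and 26.1 CPM in the shtRF libraries. The shtRF libraries were almost equal to each other and the control libraries lay well above them (log2 fold change -1.55, SE 0.06, edgeR adjusted p = 2.16e-14). IFI35, a partner of NMI in innate signalling, had 2 to 18 counts per library and was not tested.

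**Figure D3:**
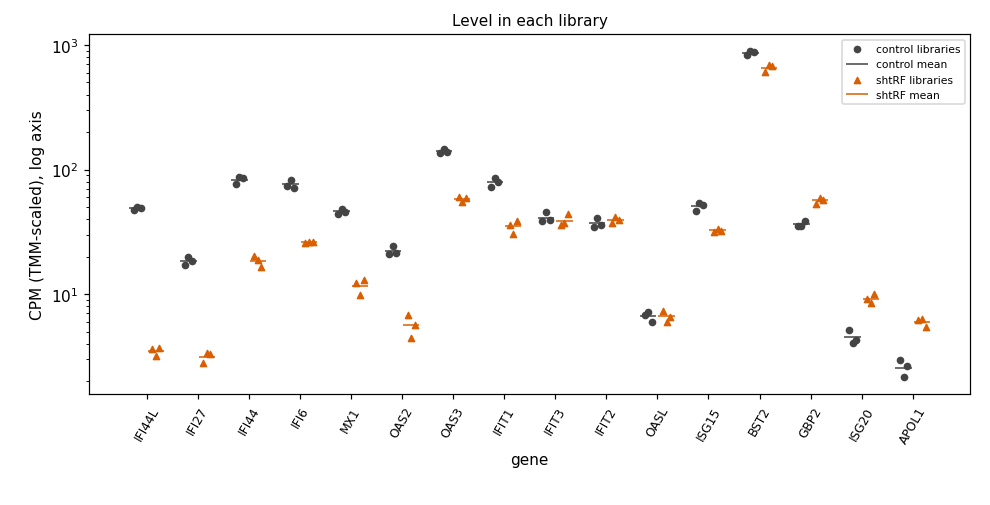
CPM (counts per 1000000 counts with TMM scaling, log axis) of 16 interferon-stimulated genes in each control library (circles) and shtRF library (triangles), with the mean of each group as a line (n = 3). From IFI44L to IFIT1 the groups are apart, IFIT3, IFIT2 and OASL overlap, ISG15 and BST2 lie modestly lower in shtRF, and GBP2, ISG20 and APOL1 lie higher.

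The 4 IFIT genes encode proteins that bind foreign RNA and block its translation, and they lie in one row on the plus strand of chromosome 10 in the order IFIT2, IFIT3, IFIT1 and IFIT5. IFIT1 and IFIT5 fell, and IFIT2 and IFIT3 were not called. IFIT1, which recognises RNA without a methylated cap (chr10:89392546-89406486), was at 72.2, 84.97 and 79.7 CPM in the control libraries and 35.9, 30.6 and 38.4 CPM in the shtRF libraries. Its groups did not overlap (log2 fold change -1.18, SE 0.07, edgeR adjusted p = 3.18e-11). IFIT5, which binds RNA ending in a triphosphate, also fell, to 52.6% of control with separate groups (log2 fold change -0.93, SE 0.08, edgeR adjusted p = 3.10e-09). IFIT2, which binds AU-rich RNA (chr10:89283694-89309276), was at 34.7, 40.9 and 35.9 CPM in the control libraries and 37.3, 41.6 and 39.7 CPM in the shtRF libraries. The groups overlapped, and the difference did not pass the test (log2 fold change 0.09, SE 0.07, edgeR adjusted p = 0.323). In IFIT2, 10.3% of the exonic bases lie in exons of another gene, RP11-149I23.3. IFIT3, which stabilises IFIT1 (chr10:89327894-89340971), was at 38.8, 45.6 and 39.2 CPM in the control libraries and 35.6, 37.3 and 43.8 CPM in the shtRF libraries. Its groups overlapped as well (log2 fold change -0.08, SE 0.08, edgeR adjusted p = 0.417).

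Within each library, where depth cancels, the RPKM ratio of IFIT1 to IFIT3 was 1.06, 1.07 and 1.17 in control and 0.576, 0.469 and 0.502 in shtRF. IFIT1 thus exceeded IFIT3 in every control library and was below it in every shtRF library. The ratio of IFIT1 to IFIT2 went from 1.89 ± 0.074 in control to 0.790 ± 0.118 in shtRF (SD, n = 3). This was 1 of 6 pairs of genes of the set compared in this way, all chosen after their values were seen. Not all pairs are of 1 family, and GBP2 with ISG15 sets a gene that rose against one that fell. In each pair the groups did not overlap, and the exact two-sided permutation test gave p = 0.1 (0.1 after adjustment over 6 pairs), the smallest that 3 against 3 libraries allow.

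The OAS proteins sense double-stranded RNA, and OAS1, OAS2 and OAS3 answer it by making oligoadenylate messengers, whereas OASL lacks that activity. The 3 catalytic genes, side by side on the plus strand of chromosome 12, fell, and OASL, farther along on the minus strand, was not called. OAS1 (chr12:112906777-112933222) was at 27.1, 28.9 and 28.8 CPM in the control libraries and 14.4, 10.98 and 12.5 CPM in the shtRF libraries. The groups did not overlap (log2 fold change -1.16, SE 0.08, edgeR adjusted p = 3.08e-10). OAS3 (chr12:112938352-112973249), the most abundant of the family per length, was at 136, 146 and 138 CPM in the control libraries and 59.95, 55.2 and 58.9 CPM in the shtRF libraries. Its groups were wide apart beside the spread within them (log2 fold change -1.27, SE 0.06, edgeR adjusted p = 7.85e-14). OAS2 (chr12:112978395-113011723) was at 21.1, 24.4 and 21.2 CPM in the control libraries and 6.80, 4.43 and 5.61 CPM in the shtRF libraries. It fell to 25.3% of control, the lowest share among the 4 genes (log2 fold change -1.98, SE 0.11, edgeR adjusted p = 6.44e-12). OASL (chr12:121019111-121039242) was at 6.73, 7.20 and 6.01 CPM in the control libraries and 7.32, 6.01 and 6.55 CPM in the shtRF libraries. The groups covered nearly the same range (log2 fold change -0.00, SE 0.11, edgeR adjusted p = 0.984). The RPKM ratio of OAS3 to OASL was 8.998 ± 0.664 in control and 3.75 ± 0.225 in shtRF (SD, n = 3).

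The enzymes that act on nucleotides and RNA went in different directions: of 5 genes, 3 fell, 1 rose and 1 was not called. ISG20, an exonuclease that degrades viral RNA (chr15:88636153-88656483, plus strand), was at 5.15, 4.05 and 4.31 CPM in the control libraries and 9.07, 8.45 and 9.998 CPM in the shtRF libraries. Every shtRF library was above every control library (log2 fold change 1.03, SE 0.11, edgeR adjusted p = 2.05e-07). CMTR1, which methylates the cap of messenger RNA (chr6:37433219-37482827, plus strand), was at 66.6, 66.3 and 70.3 CPM in the control libraries and 65.3, 72.97 and 72.7 CPM in the shtRF libraries. The groups overlapped (log2 fold change 0.05, SE 0.06, edgeR adjusted p = 0.497). CMPK2, a mitochondrial nucleotide kinase, fell to 52.3% of control (log2 fold change -0.94, edgeR adjusted p = 0.000157), and SAMHD1, which depletes deoxynucleotides, to 75.9% (log2 fold change -0.40, edgeR adjusted p = 0.000227). RSAD2, or viperin, which makes a chain-terminating nucleotide and stands head to head with CMPK2 on chromosome 2, was at 11.1 ± 0.674 CPM (SD, n = 3) in control and 9.46 ± 0.444 CPM (SD, n = 3) in shtRF. Its fall was small (log2 fold change -0.23, edgeR adjusted p = 0.0444) and lost its call when any library but control replicate 3 was left out (adjusted p from 0.0652 to 0.167). The RPKM ratio of CMPK2 to RSAD2 was 0.268 ± 0.0233 in control and 0.164 ± 0.0222 in shtRF (SD, n = 3).

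Among proteins of membranes and the outside of the cell, the IFITM genes, which hinder fusion of viruses with the cell, were expressed at a low level or not detectably. IFITM1 (chr11:313506-315272, plus strand) had 29, 12 and 16 counts in control and 0, 0 and 2 counts in shtRF. The groups did not overlap, and the summed counts, 57 against 2, had a ratio of 26.9 (exact interval at 95% confidence 7.13 to 228). Mates may have been counted singly, so this interval is too narrow even for counting error and is given as a description. Its fitted value depends on the prior count (log2 fold change -4.50, SE 0.91, edgeR adjusted p = 0.000378), and it ran from -3.95 without control replicate 1 to -7.26 without shtRF replicate 3. It passed the filter on low counts only through control libraries. Of its exonic bases 32.5% are shared with IFITM2. IFITM2 (chr11:307631-315272, plus strand) was at 1.38, 1.59 and 1.02 CPM in the control libraries and 1.25, 0.903 and 0.968 CPM in the shtRF libraries. Its groups overlapped (log2 fold change -0.35, SE 0.24, edgeR adjusted p = 0.275). IFITM3 had 0 to 11 counts per library and was not tested.

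BST2, or tetherin, holds budding virus at the cell surface and was the most abundant gene of the set. It was at 828, 899 and 878 CPM in the control libraries and 608, 696 and 672 CPM in the shtRF libraries. All shtRF libraries were below all control libraries, by a modest amount (log2 fold change -0.40, edgeR adjusted p = 1.09e-05). PLSCR1, a phospholipid scramblase (chr3:146515180-146544864, minus strand), was at 16.4, 17.9 and 19.2 CPM in the control libraries and 9.52, 7.11 and 7.24 CPM in the shtRF libraries. The groups were apart (log2 fold change -1.16, SE 0.10, edgeR adjusted p = 6.93e-09). LGALS3BP, a secreted glycoprotein (chr17:78971238-78980109, minus strand), was at 19.3, 22.7 and 18.5 CPM in the control libraries and 8.93, 9.73 and 9.60 CPM in the shtRF libraries. It was about as far down as PLSCR1, with no overlap (log2 fold change -1.10, SE 0.09, edgeR adjusted p = 1.40e-09). RTP4, a chaperone of receptors, had 0 to 10 counts and LAMP3, a lysosomal protein, 0 to 2 counts per library, and neither was tested.

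The Mx proteins are dynamin-like GTPases that trap viral nucleoproteins or capsids. MX1 (chr21:41420304-41459214, plus strand) was at 44.2, 48.3 and 45.9 CPM in the control libraries and 12.2, 9.74 and 12.97 CPM in the shtRF libraries. The lowest control library was far above the highest shtRF library (log2 fold change -1.99, SE 0.08, edgeR adjusted p = 4.04e-14). MX2, its neighbour on chromosome 21, was barely detected, at 0.802 ± 0.163 CPM (SD, n = 3) in control and 1.14 ± 0.226 CPM (SD, n = 3) in shtRF. Its difference did not pass the test (log2 fold change 0.50, edgeR adjusted p = 0.137).

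The guanylate-binding proteins are GTPases that attack the compartments of pathogens and respond chiefly to interferon gamma. Of 3 genes, 2 rose and none fell, against 20.6% higher and 18.9% lower of all tested genes. With so few genes, these counts are given as a description. GBP2 (chr1:89106132-89150456, minus strand), the only abundant one, was at 35.4, 35.1 and 38.4 CPM in the control libraries and 53.2, 59.5 and 57.3 CPM in the shtRF libraries. Every shtRF library was above every control library (log2 fold change 0.64, SE 0.06, edgeR adjusted p = 1.89e-08). GBP3 (chr1:89006666-89022894, minus strand) was at 4.66, 5.03 and 5.60 CPM in the control libraries and 8.64, 9.58 and 11.7 CPM in the shtRF libraries. It also rose with no overlap (log2 fold change 0.96, SE 0.12, edgeR adjusted p = 7.22e-07). GBP1, between them on the chromosome, was at 0.551 ± 0.162 CPM (SD, n = 3) in control and 0.407 ± 0.156 CPM (SD, n = 3) in shtRF and was not called (log2 fold change -0.44, edgeR adjusted p = 0.402). GBP7, which shares 9.9% of the exonic bases of GBP2, had at most 4 counts in a library. The RPKM ratio of GBP2 to ISG15 was 0.108 ± 0.00862 in control and 0.262 ± 0.00849 in shtRF (SD, n = 3).

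ISG15 is a ubiquitin-like protein that UBE2L6 and the HERC ligases attach to other proteins and that USP18 removes. Of these 5 genes 4 fell, by very different amounts. ISG15 itself was at 46.2, 53.6 and 52.3 CPM in the control libraries and 31.6, 33.5 and 32.1 CPM in the shtRF libraries. It fell to 63.96% of control without overlap (log2 fold change -0.64, SE 0.06, edgeR adjusted p = 3.24e-08). UBE2L6, the conjugating enzyme (chr11:57551656-57568284, minus strand), was at 20.2, 21.1 and 20.7 CPM in the control libraries and 8.41, 7.14 and 7.11 CPM in the shtRF libraries. The spread within groups was small beside the fall (log2 fold change -1.45, SE 0.09, edgeR adjusted p = 1.00e-11). HERC6 (chr4:88378739-88443111, plus strand) was at 23.03, 25.4 and 27.1 CPM in the control libraries and 9.37, 9.03 and 8.35 CPM in the shtRF libraries. It fell to 35.4% of control (log2 fold change -1.50, SE 0.08, edgeR adjusted p = 3.28e-12). HERC5, the main ISG15 ligase in human cells and the next gene along (chr4:88457117-88506163, plus strand), was at 6.76, 7.65 and 6.24 CPM in the control libraries and 6.04, 5.59 and 7.27 CPM in the shtRF libraries. Its groups overlapped (log2 fold change -0.13, SE 0.12, edgeR adjusted p = 0.417). The RPKM ratio of HERC6 to HERC5 was 3.04 ± 0.468 in control and 1.18 ± 0.208 in shtRF (SD, n = 3).

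USP18, which removes ISG15 and also curbs signalling at the interferon receptor, was at 63.9, 70.3 and 68.8 CPM in the control libraries and 59.03, 61.0 and 60.5 CPM in the shtRF libraries. The groups did not overlap, but the fall was the smallest called in the set (log2 fold change -0.17, SE 0.06, edgeR adjusted p = 0.0180). It lost its call without control replicate 2, shtRF replicate 1 or shtRF replicate 3 (adjusted p 0.0681, 0.0511 and 0.058). USP41, a near-identical copy of USP18 that can share its reads, had 41, 49 and 34 counts in control and 123, 153 and 92 in shtRF (log2 fold change 1.69, edgeR adjusted p = 1.32e-05), so the value of USP18 is uncertain.

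The PARP enzymes attach ADP-ribose to proteins, and PARP9 works in a complex with the ubiquitin ligase DTX3L. All 4 genes of this group fell by less than 2-fold, with no overlap between groups in any of them. The order was PARP14 (log2 fold change -0.75), PARP9 (-0.70), PARP12 (-0.40) and DTX3L (-0.25), and edgeR adjusted p-values ran from 1.88e-10 for PARP14 to 0.00224 for DTX3L. PARP9 and DTX3L start next to each other on opposite strands of chromosome 3.

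XAF1, which binds the apoptosis inhibitor XIAP (chr17:6755447-6775647, plus strand), was at 1.23, 1.40 and 1.45 CPM in the control libraries and 0.285, 0.262 and 0.419 CPM in the shtRF libraries. The groups were apart at this low level (log2 fold change -2.08, SE 0.29, edgeR adjusted p = 4.92e-06). In XAF1, 38.3% of the exonic bases lie in exons of RP11-609D21.3 on the opposite strand, whose log2 fold change was -2.02. EPSTI1, induced in epithelial cells by contact with stroma, was at 0.309 ± 0.0343 CPM (SD, n = 3) in control and 0.140 ± 0.0241 CPM (SD, n = 3) in shtRF. Its groups did not overlap, but the difference did not pass the test (log2 fold change -1.13, edgeR adjusted p = 0.0679). EPSTI1 passed the filter on low counts in 3 control libraries but only 1 shtRF library.

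SAMD9 and SAMD9L are neighbouring genes on chromosome 7 whose products restrict poxviruses and slow cell growth. SAMD9L (chr7:93130055-93148369, minus strand) was at 0.492, 0.477 and 0.702 CPM in the control libraries and 0.0570, 0.116 and 0.258 CPM in the shtRF libraries. All shtRF libraries were below the control libraries at this low level (log2 fold change -1.97, SE 0.49, edgeR adjusted p = 0.00248). Without shtRF replicate 3 the log2 fold change was -2.66 (edgeR adjusted p = 0.00132). SAMD9L passed the filter on low counts in 3 control libraries but only 1 shtRF library, so it was tested because of its level in control. SAMD9, far more abundant, fell to 69.5% of control (log2 fold change -0.53, edgeR adjusted p = 9.23e-05).

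Of the nuclear proteins, HELZ2, a helicase and coactivator, fell to 54.1% of control (log2 fold change -0.89, edgeR adjusted p = 6.29e-08), and SP110, a nuclear body protein, to 82.9% (log2 fold change -0.27, edgeR adjusted p = 0.000331). In SP110 45.2% of the exonic bases lie in another gene, AC009950.1. SP100, a scaffold of nuclear bodies (chr2:230415942-230544090, plus strand), was at 40.3, 42.6 and 41.9 CPM in the control libraries and 42.8, 42.5 and 47.7 CPM in the shtRF libraries. Its groups overlapped (log2 fold change 0.09, SE 0.06, edgeR adjusted p = 0.243). BATF2, a transcription factor of the AP-1 type, was near the limit of detection and was not called (log2 fold change -0.50, edgeR adjusted p = 0.401).

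The apolipoproteins L, of which APOL1 lyses trypanosomes and APOL6 can promote cell death, moved in opposite directions. APOL1 (chr22:36253010-36267530, plus strand) was at 2.94, 2.14 and 2.63 CPM in the control libraries and 6.24, 6.26 and 5.42 CPM in the shtRF libraries. Every shtRF library was well above the highest control library (log2 fold change 1.22, SE 0.14, edgeR adjusted p = 2.86e-07). APOL6 fell to 66.0% of control (log2 fold change -0.60, edgeR adjusted p = 2.92e-05).

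The genes that act before and beside these effectors were taken as 58 genes in 5 lists, of which 45 were tested, 19 fell and 10 rose, against 18.9% lower and 20.6% higher of all genes tested. The number that rose was near that background, and these lists had genes taken out after the tests had been run. With upper quartile scaling 19 were called lower and 5 higher. Interferon genes were close to silent: IFNL1 had 0, 8 and 8 counts in control and 0, 4 and 14 in shtRF, and the other measured ones (IFNA2, IFNK, IFNL2, IFNL3 and IFNG) were lower still. IFNA1, IFNB1, IFNE and ZBP1 were looked for but had no entry among the 36517 genes counted, all of which had 1 count or more. Of the receptor genes, IFNAR1 (log2 fold change 0.27, edgeR adjusted p = 0.00117) and IFNAR2 (0.81, adjusted p = 0.000442) rose, the second with 48.4% of its exonic bases in IL10RB-AS1. IFNGR1 (0.10), IFNGR2 (0.15) and IL10RB (0.29) were not called, and IFNLR1 was too low to test.

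Of 10 tested JAK, STAT and IRF genes 3 fell and 4 rose, against 18.9% lower and 20.6% higher of all tested genes. With so few genes, these counts are given as a description. IRF7, which amplifies interferon production, fell by 0.67 on the log2 scale (edgeR adjusted p = 1.49e-05) and IRF9, the DNA-binding part of ISGF3, by 0.56 (edgeR adjusted p = 2.87e-07), though 48.4% of the exonic bases of IRF9 lie in another gene. STAT2, another part of ISGF3, was not called (log2 fold change -0.08, edgeR adjusted p = 0.456), and STAT3 fell by 0.26. IRF3 (0.53), JAK2 (0.46), IRF2 (0.21) and JAK1 (0.21) rose, with edgeR adjusted p-values from 8.00e-07 for IRF3 to 0.0423 for IRF2. IRF3 shares 19.35% of its exonic sequence with BCL2L12 on the opposite strand, whose log2 fold change was 0.58. Whether reads of BCL2L12 had a part in the rise of IRF3 was not tested. IRF1 (0.15) and TYK2 (0.09) were not called. IRF5 was too low to test.

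Among 11 tested sensors and adaptors of foreign nucleic acid 4 fell and 1 rose, against 18.9% lower and 20.6% higher of all tested genes. The same shares apply to the other lists of this paragraph, and with few genes per list the counts are given as a description. EIF2AK2, the kinase PKR that halts translation, had the largest fall (log2 fold change -0.81, edgeR adjusted p = 1.27e-10). IKBKE, a kinase that activates IRF3 and IRF7, was the gene that rose (log2 fold change 0.19, edgeR adjusted p = 0.0203). Of 14 genes of class I antigen presentation 10 fell and 2 rose, the ends being HLA-F (log2 fold change -1.62, edgeR adjusted p = 8.69e-10, 28.5% of its exonic bases in another gene) and TAPBP (0.25, edgeR adjusted p = 0.0137). Of 5 negative regulators, which dampen JAK and STAT signalling, 2 fell and 1 rose, with PTPN2 lowest (log2 fold change -0.25, edgeR adjusted p = 0.00647) and PTPN6 highest (0.20, edgeR adjusted p = 0.0238) among those called.

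**Figure D4:**
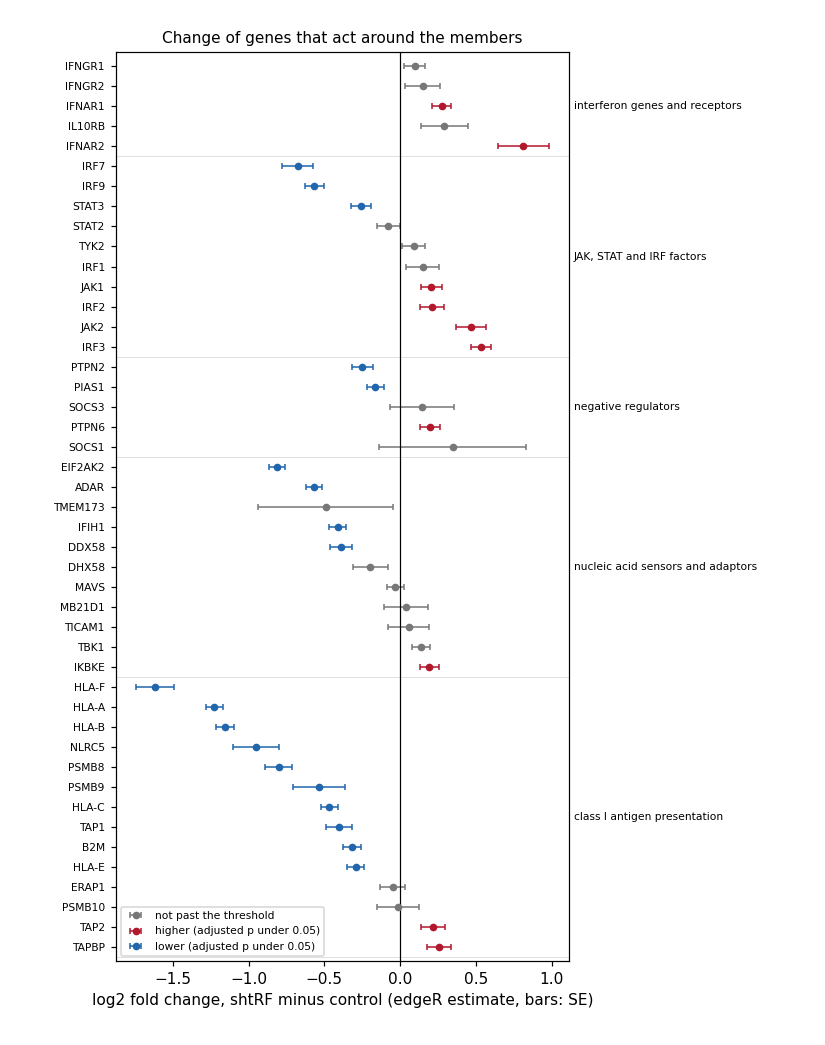
Log2 fold change (shtRF minus control, horizontal axis, bars of 1 SE from edgeR, 3 libraries per group) of 45 tested genes that act before or beside the interferon-stimulated effectors, grouped by list. EIF2AK2, IRF7 and IRF9 lie left of 0, IFNAR2 and IRF3 right of it. Of 14 antigen presentation genes 10 are called lower, against 18.9% of all tested genes.

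Genes beside the interferon-stimulated genes on the chromosome were examined as the nearest tested gene on each side that shared no exonic base with them. Of 68 such genes 17 fell, or 25.0%, and 17 rose, or 25.0%, with a median log2 fold change of -0.12. These shares are close to the 18.9% lower and 20.6% higher of all tested genes. The gaps to the neighbouring genes ran up to 2446477 bases, between PLSCR1 and GYG1, so not all of them lay close by. The largest fall was in RP4-641G12.3, which begins 2194 bases beyond IFI44, at 0.680 CPM in control and 0.127 CPM in shtRF (log2 fold change -2.39, edgeR adjusted p = 0.000192). The largest rise was in AC008079.9, 641 bases from USP18, at 0.108 CPM in control and 0.338 CPM in shtRF (log2 fold change 1.63, edgeR adjusted p = 0.0255).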

How the data were processed

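Strand-specific mRNA libraries of MDA-MB-453 cells were sequenced as read pairs in 3 control and 3 shtRF samples, grouped by their titles. The authors deposited raw counts per gene with exon coordinates on GRCh38. The submitters' processing notes name Trimmomatic 0.36, featureCounts, Subread 1.5.1 and edgeR 3.12.1, and the aligner is not given in the sources used here. Totals were 63541413 to 78917459 counts per library. Of counts from 1 to 4, 74.2% to 77.1% were even, so mates may have been counted singly, which overstates the depth of low genes, and a replicate spread was used for all tests. Reads in exons shared by several genes could enter each of them. The authors also deposited RPKM values, of which the part used here held 4997 complete genes. For the 4991 matched by symbol, 100% of values equalled the count per kilobase of exon and per 1000000 counted reads to within a relative tolerance of 1e-06, and RPKM of the remaining genes was computed in that way. No column of the authors' own comparisons was used.

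edgeR 4.0.16 in R 4.3.3 was run on the counts with filterByExpr (minimum count 10), TMM scaling and the quasi-likelihood test over all 6 libraries, with group as the only term. Genes were 19628 after the filter, and Benjamini-Hochberg adjustment ran over all of them. CPM carry the TMM factors, and errors are SDs over 3 libraries. Alternatives were RLE and upper quartile scaling, other filters, DESeq2 1.42.0, limma-voom (limma 3.58.1), halved counts, only genes with under 10% of their exonic bases in other genes, a replicate block, and each library left out. Overlaps were found with bedtools 2.31.1 and exact permutation tests used scipy 1.17.1. For the genes beside the set, 62 symbols that name several places in the genome were left out, a limit chosen after seeing the data.

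The 50 genes and the other lists were chosen with earlier results of these data known. Some genes of the other lists are not reported here and were taken out of those lists after the tests had been run. All 50 are named. Values in every library were given for those called with a fold change of 2 or more and for those at 1 CPM or more not called lower. From the other lists, interferon, receptor, JAK, STAT and IRF genes and the largest rise and fall called were named, and from the neighbouring genes the largest rise and fall called. The labels do not say whether the numbers shared by control and shtRF replicates mark pairs. Same-numbered libraries had correlations of 0.0185, -0.0029 and 0.0045 in their deviations from the group means. These values show no shared deviation, but they cannot tell whether the libraries were made as pairs.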

Additional observations from a re-analysis of the deposited data

How the results depend on the processing

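Across the 16 alternatives, 707 of 720 log2 fold changes of single genes kept their direction and their side of the threshold, 10 lost their call (RSAD2 and USP18) and 3 changed sign. The sign changes were all in OASL, which was never called: 0.0499 without control replicate 2, 0.0642 without shtRF replicate 2 and 0.0075 without shtRF replicate 3, within a range of -0.0891 to 0.0642 over the libraries left out. Besides leaving libraries out, RSAD2 lost its call with every gene of 1 count or more (adjusted p = 0.0749) and with limma-voom (adjusted p = 0.0508). Of 35 called genes, 33 kept their call under every alternative that tested them. The genes called lower numbered 28 under the limit on exon overlap and 29 to 31 under the others. The genes higher by more than 2-fold numbered 1 under upper quartile scaling and 1 to 3 with a library left out. Of the 58 genes of the pathway, those called higher numbered 5 under upper quartile scaling, 6 under the limit on exon overlap, where only 32 were tested, and 7 to 8 with a library left out. Neighbouring genes called lower numbered 10 of the 47 left above 1 CPM in 3 libraries or more. The cause of the shifts under upper quartile scaling was not tested. With the replicate block, 31 genes were lower and 4 higher, 16 and 2 of them by more than 2-fold, so the pairing by number changed none of these counts. No scaling moved the median of all genes by more than 0.1 on the log2 scale. Depth limits IFITM3, RTP4, LAMP3 and IFI35, whose changes were not detectable here.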
